A study of Homo sapiens with 18 samples.

Results

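A set of 8 human keratin genes was followed here across 2 cell lines, their mixed cultures and an irradiation treatment. The members were KRT7, KRT8, KRT18, KRT19, KRT20 and KRT23, which belong to simple (single-layered) epithelia, and KRT80 and KRT81, a widely expressed epithelial keratin and a hair keratin. They were chosen by name, as the rows whose gene symbol equals one of the 8 names, and all 8 were found among the 40916 symbols of the count tables. Poly(A)-selected RNA was sequenced from 6 groups of 3 libraries each, described by the submitters as biological replicates. MCF10A, a non-tumorigenic human mammary epithelial line, carried an H2B-GFP nuclear label and was grown with horse serum, EGF, hydrocortisone, cholera toxin and insulin. HCT116, a human colorectal carcinoma line, was unlabelled and was grown in McCoy's 5A medium with fetal bovine serum. Line and medium therefore cannot be told apart. The mixed cultures were set up with both lines at 50% each, in a medium that is not given in the sources used here. Each of the 3 cultures was either not irradiated (NIR) or given 10 Gy (IR). RNA was taken at 72 hours per the series text, whereas the sample titles say day 2.

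Keratins form the intermediate filaments of epithelial cells, and every filament is built from pairs of one type I and one type II chain. KRT8 (type II) with KRT18 (type I) is the primary pair of simple epithelia, KRT7 is a further type II chain of ducts and glands, and KRT19 is a short type I chain that can pair with either. KRT20 is a type I chain typical of intestinal epithelium and KRT23 is another type I chain found in the digestive tract. Mammary cultures of basal character typically carry KRT5, KRT14 and KRT17 instead, and simple keratins are known to be induced in stressed epithelia.

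The members lie in the 2 human keratin clusters (GRCh38, GENCODE release 29). The type II genes are on chromosome 12: KRT80 at chr12:52168996-52192000, KRT7 at chr12:52232520-52252186, KRT81 at chr12:52285913-52291534 and KRT8 at chr12:52897187-52949954. KRT18 is the one type I gene beside them, at chr12:52948871-52952901. The other type I genes are on chromosome 17: KRT20 at chr17:40875941-40885227, KRT23 at chr17:40922696-40937634 and KRT19 at chr17:41523617-41528308. KRT8 and KRT18 overlap by 1084 bases on opposite strands, 525 of them exonic in both, and KRT7 shares 282 exonic bases with its antisense gene KRT7-AS. The library kit keeps strand, but the strand setting of the counting is not given in the sources used here, so reads in those stretches cannot be assigned to one gene with certainty.

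KRT81 has close relatives, which matters because its counts carry one of the largest differences between the lines. Its coding sequence is 94.2% identical to that of KRT86, with one shared run of 605 bases, and 93.4% identical to that of KRT83, where the longest shared run is 95 bases. The following 60 coding bases, 5′ to 3′, are the stretch of KRT81 with the most differences from KRT86. It spans coding bases 1330 to 1389, at chr12:52286384-52286443 on the minus strand. Capitals mark bases that differ from KRT81.
KRT81: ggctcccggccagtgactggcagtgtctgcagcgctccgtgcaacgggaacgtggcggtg
KRT86: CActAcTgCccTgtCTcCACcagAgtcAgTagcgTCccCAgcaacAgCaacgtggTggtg
KRT83: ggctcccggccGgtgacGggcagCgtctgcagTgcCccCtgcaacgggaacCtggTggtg
KRT86 differs at 21 of these bases and KRT83 at 8. Reads from here can be told apart, whereas reads from the 605-base run cannot. KRT86 was counted at 2.90 ± 0.691 CPM (SD, n = 3) and KRT83 at 0.386 ± 0.129 CPM in MCF10A without irradiation, where KRT81 was at 2432 ± 121 CPM.

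Levels are given as CPM, the count scaled to the total of the library. Library totals ran from 25737818 to 40839835 counts. The HCT116 label was checked on 10 intestinal markers, which summed to 314 to 339 CPM without irradiation, most of it EPCAM (315 ± 13.0 CPM). CDX1 and CEACAM5 had no counts there and CDX2 was at 10.0 ± 1.14 CPM. VIL1, CDH17, GPA33, LGR5, LGALS4 and AGR2 were each at 0.612 CPM or less there. LGALS4 was at 0.0676 CPM in HCT116 and at 0.157 CPM in MCF10A. In MCF10A, 6 of the 10 had no counts. The 10 basal mammary markers summed to 10431 to 11378 CPM in MCF10A and to 707 to 767 CPM in HCT116, where TP63 and TGFBI had no counts. Most of the HCT116 sum was ITGB4 (477 CPM), and CDH3 was higher in HCT116 than in MCF10A (196 against 147 CPM). By genes that mark one line, the mixed cultures carried an estimated 0.42% MCF10A RNA without and 1.22% with irradiation, far below equal parts. The low level of these genes in the other line was not subtracted. With markers held under 0.2 CPM in the other line, the estimates were 0.263% and 0.843%. The non-irradiated HCT116 replicate 1 stood apart from its group, with higher values for KRT80, KRT81, KRT7 and KRT20 and a lower one for KRT19. Mitochondrial genes took more of the counts after irradiation, 6.20 ± 0.146% against 5.19 ± 0.116% in MCF10A, 12.0 ± 0.430% against 8.62 ± 0.172% in HCT116 and 12.3 ± 0.354% against 8.54 ± 0.177% in mixed cultures. In such bulk samples, fewer cells of a type and less RNA per cell cannot be told apart.

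Without irradiation the lines differed most in KRT19, KRT81 and KRT7. KRT8, KRT18, KRT19, KRT20 and KRT23 were higher in HCT116, and KRT7 and KRT81 were higher in MCF10A by about 3 orders of magnitude. All 8 members passed the test, 5 higher and 3 lower in HCT116, where 38.7% of all 16568 genes tested were called higher and 36.1% lower. A gene was called at an adjusted p under 0.05 in edgeR's quasi-likelihood test with Benjamini-Hochberg adjustment over all genes.

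KRT19 gave the sharpest contrast. It stood at 720, 996 and 943 CPM in the HCT116 libraries and had no count in any of the 3 MCF10A libraries. Taking 3 counts over the group as the floor, it was at least 28962-fold higher in HCT116. Mates of a pair may have been counted separately, since 68.3% of counts from 1 to 10 were even numbers, and halving the counts gives at least 14481-fold. Such bounds and intervals cover counting error only. The intervals given below take every count as independent, so they are too narrow if mates were counted separately. Once both lines were irradiated, MCF10A gave 2, 10 and 10 counts of KRT19, and HCT116 was 6198-fold higher (95% counting interval 4093 to 9890).

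The KRT8 and KRT18 pair was present in both lines. KRT8 was at 1417, 1456 and 1472 CPM in HCT116 and at 136, 158 and 141 CPM in MCF10A. The groups were far apart, with a log2 fold change of 3.12 ± 0.063 (SE; edgeR adjusted p = 1.10e-17). KRT18 was at 396, 393 and 389.9 CPM in HCT116 and at 146, 169 and 147 CPM in MCF10A. Its difference was smaller, 1.15 ± 0.060 on the log2 scale (edgeR adjusted p = 6.28e-12), again with no overlap.

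KRT20 and KRT23 were low even where they were present. KRT20 gave 52, 30 and 26 counts in the HCT116 libraries (1.13 ± 0.328 CPM) and 2, 0 and 0 counts in MCF10A. The ratio of the summed, depth-scaled counts was 56.5, with a 95% counting interval of 15.3 to 473. KRT23 gave 140, 177 and 97 counts in HCT116 (4.35 ± 1.03 CPM) and 3, 4 and 3 in MCF10A, a ratio of 43.3 (95% counting interval 23.3 to 91.0). Both were thus above MCF10A in every HCT116 library, at levels of a few CPM.

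KRT7 and KRT81 ran the other way. KRT7 was at 1458, 1496 and 1426 CPM in MCF10A and at 1.97, 1.15 and 1.23 CPM in HCT116, a log2 difference of -10.15 ± 0.108 (edgeR adjusted p = 5.22e-21). KRT81 was at 2462, 2536 and 2299 CPM in MCF10A and at 2.57, 0.715 and 0.941 CPM in HCT116, a log2 difference of -10.90 ± 0.191 (edgeR adjusted p = 1.59e-18). For KRT81 the size rests partly on HCT116 replicate 1, and without it the value was -11.72. Every HCT116 library was thus at 2.57 CPM or less, against at least 1426 CPM in MCF10A.

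KRT80 was the one member at a like level in both lines. It was at 15.5, 16.1 and 18.1 CPM in MCF10A and at 19.1, 8.17 and 7.86 CPM in HCT116, so the libraries overlapped. The log2 difference of -0.69 ± 0.232 passed the test (edgeR adjusted p = 0.0124), and it became -1.24 without HCT116 replicate 1. It did not pass without HCT116 replicate 2 or 3 (edgeR adjusted p = 0.0861 and 0.0664), nor under 3 of 10 other settings, among them DESeq2 (adjusted p = 0.128).

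**Figure D1:**
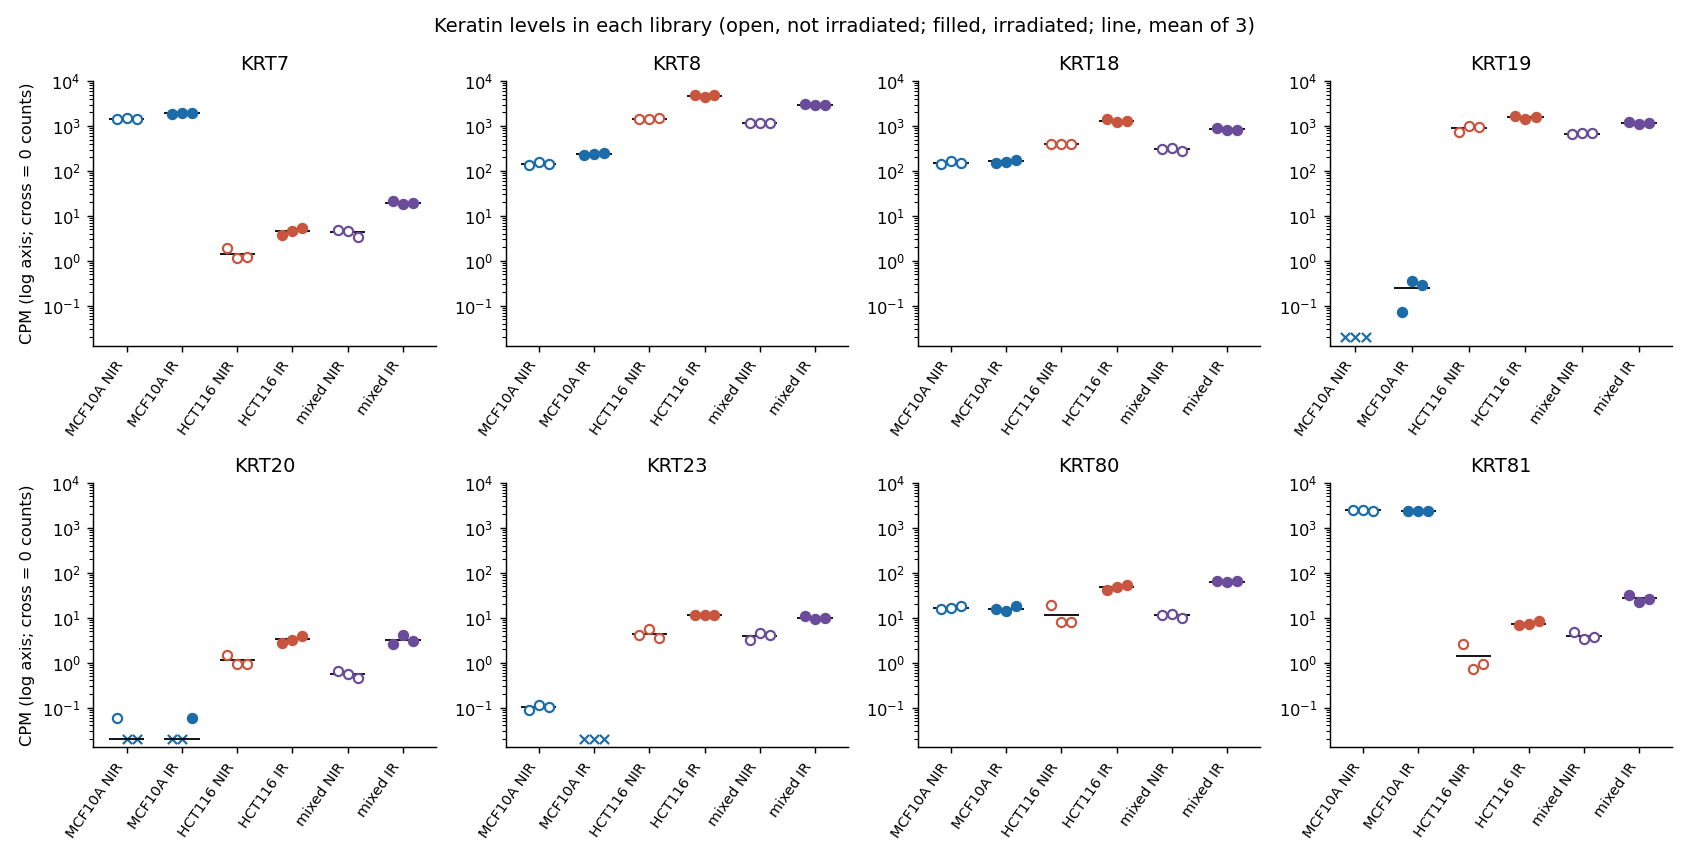
CPM of each keratin (log axis) in the 18 libraries by group, with open points for NIR, filled points for IR, a line at the mean of 3 libraries and crosses for libraries with 0 counts. KRT7 and KRT81 lie at 1426 CPM or more in MCF10A and at 32.5 CPM or less elsewhere, KRT19 has no counts in MCF10A NIR, and all 8 keratins are higher in HCT116 IR than in HCT116 NIR.

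Set against transcript length, the leading keratin differed between the lines. In MCF10A without irradiation, CPM per kilobase of the first listed transcript was 1261 ± 62.7 for KRT81 and 832 ± 19.9 for KRT7. KRT18 (98.5 ± 8.27) and KRT8 (77.0 ± 6.08) followed well below. In HCT116 the order was KRT8 (769.6 ± 15.0 CPM per kilobase), KRT19 (638 ± 105) and KRT18 (252 ± 1.85), with the other members at 3.01 or less. KRT8 and KRT19 changed places there when all annotated exons were taken as the length.

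The members also made up different parts of the keratin RNA. All 55 keratin symbols together took 0.972 ± 0.0429% of counts in MCF10A and 0.281 ± 0.0170% in HCT116. The 8 members were 43.3 ± 0.634% of that keratin total in MCF10A and 97.9 ± 0.159% in HCT116. KRT8 with KRT18 made up 65.7 ± 3.25% of keratin counts in HCT116 and 3.07 ± 0.210% in MCF10A. Keratin counts of HCT116 thus came almost wholly from the 8 members, and the larger part of the MCF10A keratin counts came from others, led by KRT5 at 2883 CPM and KRT6A at 1629 CPM.

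Irradiation of HCT116 raised all 8 keratins. All 8 were called higher and none lower, where 25.3% of 16857 genes tested were called higher and 27.2% lower. Their median log2 fold change was 1.69, against 0.01 over all genes tested. In no member did an irradiated library overlap a non-irradiated one. How often that held over all genes was not computed, so it is not read as particular to the members. All 8 were still called without HCT116 NIR replicate 1. The mitochondrial share moved with treatment as given above, and all 8 were also called when TMM factors were computed without mitochondrial and the 10 most abundant genes.

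The abundant pair rose by nearly the same factor. KRT8 went from 1417, 1456 and 1472 CPM to 4959, 4428 and 4887 CPM, a log2 fold change of 1.72 ± 0.053 or 3.30-fold (edgeR adjusted p = 2.57e-17). KRT18 went from 396, 393 and 389.9 CPM to 1397, 1209 and 1314 CPM, 1.74 ± 0.058 or 3.34-fold (edgeR adjusted p = 8.81e-17). The libraries within each group lay close together for both genes. KRT19, the other abundant type I chain, rose less, from 720, 996 and 943 CPM to 1663, 1424 and 1561 CPM. Its log2 fold change was 0.81 ± 0.084 (edgeR adjusted p = 2.13e-08), or 0.67 without HCT116 NIR replicate 1, and its part of the keratin counts went from 31.4 ± 3.41% to 19.9 ± 0.370%. Keratins as a whole went from 0.281% to 0.778 ± 0.0502% of all counts.

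The digestive-tract keratins rose from low levels. KRT20 gave 52, 30 and 26 counts before and 91, 130 and 101 counts after irradiation, 1.13 ± 0.328 against 3.29 ± 0.584 CPM. Its log2 fold change was 1.54 ± 0.294 (edgeR adjusted p = 0.000115). KRT23 went from 4.05, 5.50 and 3.51 CPM to 11.2, 11.6 and 11.7 CPM, 1.40 ± 0.161 on the log2 scale (edgeR adjusted p = 1.18e-07). Both remained rare beside KRT8, with KRT20 at 2.77 to 3.92 CPM and KRT23 at 11.2 to 11.7 CPM in the irradiated libraries.

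The promoter of KRT20 is shown because it is the member most typical of intestinal epithelium, and because RefSeq's table held windows for only 2 of the 8 members. The 300 bases below (GRCh38.p14, chr17:40885193-40885492, minus strand, 5′ to 3′) run from 250 bases before the transcript start to 50 after it.
KRT20: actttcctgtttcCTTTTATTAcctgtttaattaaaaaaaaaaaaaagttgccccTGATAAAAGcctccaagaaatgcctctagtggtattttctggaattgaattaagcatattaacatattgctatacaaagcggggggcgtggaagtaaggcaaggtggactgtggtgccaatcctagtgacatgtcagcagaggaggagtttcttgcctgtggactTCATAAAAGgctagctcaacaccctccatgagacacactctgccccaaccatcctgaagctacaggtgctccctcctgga
Capitals mark matches, on either strand, to the letters ATAAAAG, which resemble the TATA box, and TTTATNA, which resembles the element bound by CDX factors. The matches overlap each other. ATAAAAG starts at -237, -193 and -28 from the transcript start and is found in 4.66% of 35116 promoters of this length. TTTATNA starts at -235, -195 and -30 and is found in 12.2% of them. The letters of TATAAA and of TGANTCA, the AP-1 element, are not in this window. The motifs were chosen after the sequence was seen, and a match is a description of the letters only. CDX2 itself was at 10.0 CPM in HCT116 NIR, 12.6 CPM in HCT116 IR and 0 counts in MCF10A NIR.

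KRT80 and KRT81 had the largest rises among the members. KRT80 went from 19.1, 8.17 and 7.86 CPM to 42.1, 48.5 and 54.2 CPM, a log2 fold change of 2.04 ± 0.198 (edgeR adjusted p = 8.56e-09). KRT81 went from 2.57, 0.715 and 0.941 CPM to 6.70, 7.10 and 8.31 CPM, 2.36 ± 0.296 (edgeR adjusted p = 4.54e-07). KRT7 went from 1.97, 1.15 and 1.23 CPM to 3.72, 4.63 and 5.44 CPM, 1.66 ± 0.259 (edgeR adjusted p = 1.01e-05). In all 3 the highest non-irradiated library was replicate 1. Without that library the values were 2.58 for KRT80, 3.15 for KRT81 and 1.94 for KRT7, all called.

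KRT7 and KRT81 are abundant in MCF10A, so their levels in HCT116 were set beside those of basal markers. In irradiated HCT116, KRT81 was at 0.31% and KRT7 at 0.241% of the level in irradiated MCF10A. By the same measure KRT14 was at 0.193%, KRT17 at 0.185%, KRT5 at 0.0553%, TP63 at 0.0249% and TGFBI at 0.00709%. KRT5 went from 0.117 ± 0.152 to 1.54 ± 0.944 CPM with irradiation of HCT116. The 10 basal markers summed to 1222 to 1419 CPM in irradiated HCT116, of which ITGB4 gave 978 and CDH3 274 CPM, and none of the 10 was without counts. What part stray MCF10A RNA had in the KRT7 and KRT81 counts of HCT116 was not tested.

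In MCF10A the same dose raised KRT8 and KRT7, and KRT18, KRT80 and KRT81 did not pass the test. The 5 of 8 members that passed the filter on low counts gave 2 calls higher and none lower, where 26.2% of 15154 genes tested were called higher and 29.2% lower. KRT19, KRT20 and KRT23 were too low to be tested. With 5 genes tested, the number of calls is not read as particular to the members.

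KRT8 went from 136, 158 and 141 CPM to 227, 242 and 251 CPM, a log2 fold change of 0.70 ± 0.053 (edgeR adjusted p = 5.05e-12). KRT7 went from 1458, 1496 and 1426 CPM to 1854, 1931 and 1939 CPM, 0.36 ± 0.036 (edgeR adjusted p = 1.05e-09). Both were above all non-irradiated libraries in all 3 irradiated ones. KRT18, the partner of KRT8, was at 146, 169 and 147 CPM before and 153, 159 and 178 CPM after, 0.06 ± 0.058 (edgeR adjusted p = 0.367), with overlapping libraries. It passed with upper-quartile scaling (0.15, edgeR adjusted p = 0.0339) and without non-irradiated replicate 2 (0.15, edgeR adjusted p = 0.023). KRT81 was at 2432 ± 121 and 2379 ± 16.7 CPM, -0.05 ± 0.036 (edgeR adjusted p = 0.218), and passed without non-irradiated replicate 3 (-0.094, edgeR adjusted p = 0.0332). KRT80 was at 16.6 ± 1.38 and 15.9 ± 1.78 CPM, -0.08 ± 0.106 (edgeR adjusted p = 0.569). With upper-quartile scaling the fitted values turned to 0.031 for KRT81 and 0.0084 for KRT80, so neither has a settled direction.

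The keratins near 0 in MCF10A are best given as counts. KRT19 gave 0, 0 and 0 counts without and 2, 10 and 10 with irradiation, at least 8.17-fold higher (4.09-fold with counts halved). KRT23 gave 3, 4 and 3 counts without and 0, 0 and 0 with irradiation, at least 2.99-fold lower (1.5-fold with counts halved). KRT20 gave 2 counts in each group. These are changes of at most 10 counts a library.

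**Figure D2:**
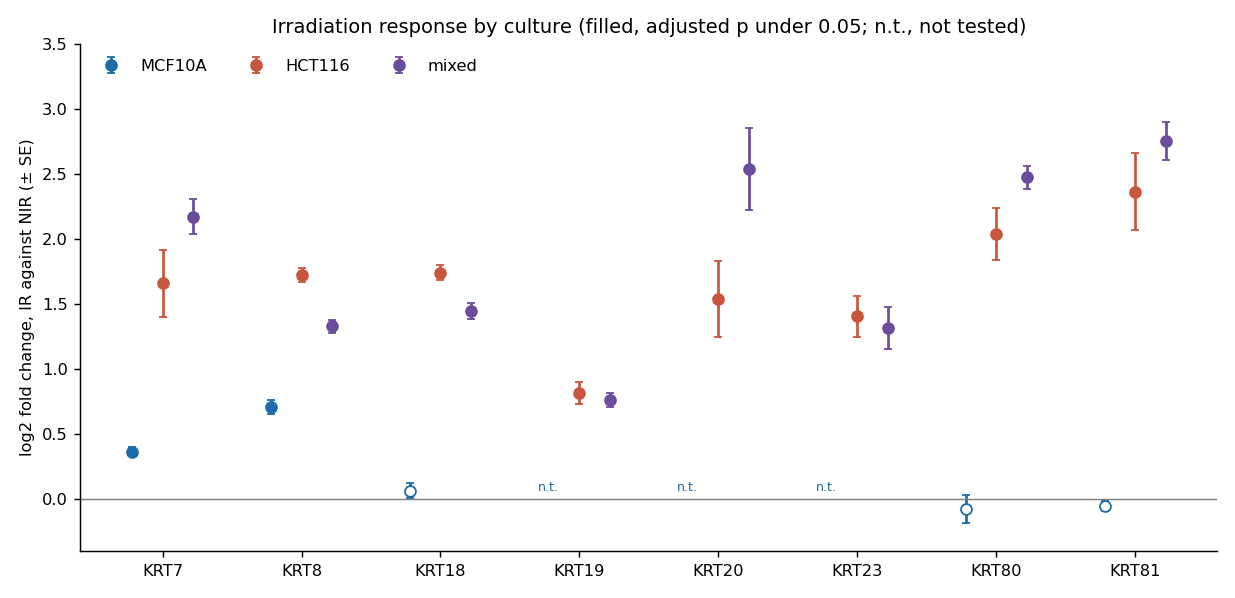
Log2 fold change of IR against NIR for each keratin with its standard error, in MCF10A, HCT116 and mixed cultures (3 against 3 libraries each); filled points passed an adjusted p under 0.05 and n.t. marks members not tested. HCT116 and mixed cultures rise for all 8 keratins, from 0.76 for KRT19 to 2.75 for KRT81 in mixed cultures. Among the 5 tested in MCF10A, KRT7 and KRT8 were called higher.

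The difference between the lines in their response was itself tested, as an interaction over 12 libraries. All 8 members were tested and 7 were called, 6 with the larger rise in HCT116 and 1 with the larger rise in MCF10A. Over 18179 genes tested, 15.4% were called in the first direction and 21.9% in the second. KRT18 differed by 1.60 ± 0.089 on the log2 scale (edgeR adjusted p = 5.59e-13). KRT8, which rose in both lines, differed by 0.94 ± 0.079 (edgeR adjusted p = 7.25e-10). KRT7 also rose in both and differed by 1.19 ± 0.162 (edgeR adjusted p = 1.81e-06). The HCT116 rise was the larger one in these 3 genes.

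KRT81 differed by 2.31 ± 0.218 (edgeR adjusted p = 5.38e-09), or 3.13 without HCT116 NIR replicate 1. KRT80 differed by 2.04 ± 0.274 (edgeR adjusted p = 1.65e-06). The calls for KRT23 (6.23 ± 1.28, adjusted p = 0.000433) and KRT19 (-5.33 ± 1.62, adjusted p = 0.0115) from edgeR rest on the few MCF10A counts above, so their sizes depend on the fit's prior count. KRT20 did not pass (1.37 ± 1.73, edgeR adjusted p = 0.592).

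After irradiation all 8 members again differed between the lines. Of them 6 were called higher and 2 lower in HCT116, where 38.1% of 16932 genes tested were called higher and 36.8% lower. KRT8 stood 16.9-fold higher (log2 4.08 ± 0.054, edgeR adjusted p = 4.28e-28) and KRT18 6.82-fold higher (2.77 ± 0.059, edgeR adjusted p = 8.61e-24). KRT80 was now higher in HCT116, at 48.3 ± 6.02 against 15.9 ± 1.78 CPM, with no overlap (1.36 ± 0.098, edgeR adjusted p = 1.89e-12). KRT7 (-8.94 ± 0.079, edgeR adjusted p = 1.42e-31) and KRT81 (-8.57 ± 0.067, edgeR adjusted p = 1.55e-32) were still far lower, though by less than without irradiation (-10.15 and -10.90). The KRT19 ratio of 6198 given above was also below its bound without irradiation. The KRT20 ratio was 144 (95% counting interval 39.4 to 1191) and KRT23 was at least 339-fold higher, with no counts in MCF10A IR.

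The ratio of KRT8 to KRT18 counts compares both chains of the pair within a library and does not depend on library scaling. It was 0.928, 0.935 and 0.965 in non-irradiated and 1.48, 1.53 and 1.41 in irradiated MCF10A, with no overlap. In HCT116 it was 3.58, 3.71 and 3.77 before and 3.55, 3.66 and 3.72 after irradiation, with overlapping libraries. The log2 ratio thus moved by 0.64 in MCF10A and by -0.017 in HCT116. By a 2-sided exact permutation test p was 0.1 in MCF10A, the smallest that 3 against 3 libraries allow, and 0.6 in HCT116. Over the 7 comparisons made the adjusted values were 0.233 and 0.6. Between the lines the log2 ratio differed by 1.97 without and 1.31 with irradiation (exact permutation p = 0.1 each, adjusted 0.233).

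Reads in the shared stretch of the KRT8 and KRT18 genes, and reads of their pseudogenes, can move this ratio. Pseudogene symbols held 4.87% as many counts as KRT8 in MCF10A NIR and 1.42% in HCT116 NIR. For KRT18 the figures were 1.06% in both. With these counts added, the log2 ratio moved by 0.62 in MCF10A.

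**Figure D3:**
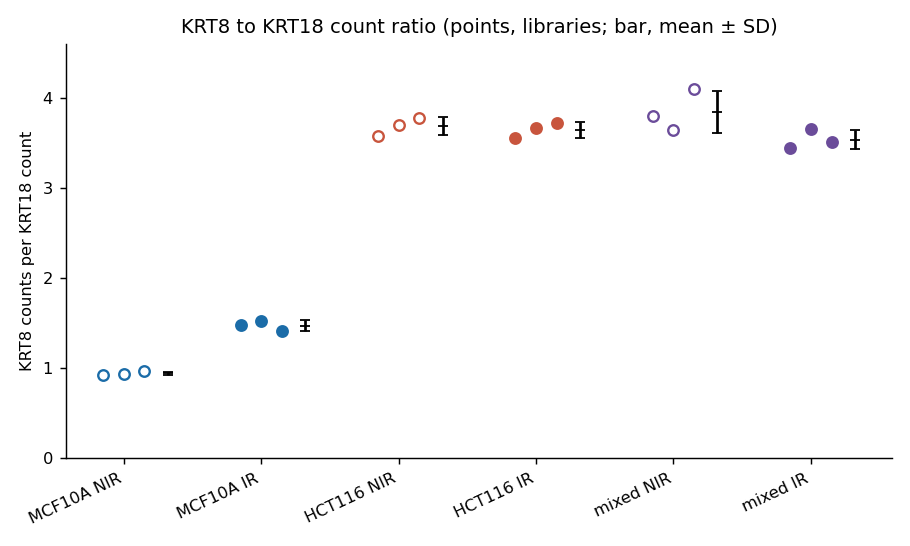
KRT8 counts per KRT18 count in each library (points; open NIR, filled IR), with the mean and SD of 3 libraries beside them. The MCF10A libraries move from 0.928 to 0.965 up to 1.41 to 1.53, and the HCT116 and mixed libraries all lie between 3.44 and 4.10.

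The mixed cultures resembled HCT116. Irradiation raised all 8 members there and lowered none, where 24.0% of 16906 genes tested were called higher and 25.4% lower. The median log2 fold change was 1.81 for the members and 0.01 over all genes tested. KRT8 went from 1158, 1162 and 1167 CPM to 3107, 2947 and 2861 CPM, 1.33 ± 0.051 on the log2 scale (edgeR adjusted p = 1.73e-14). KRT18 went from 305, 319 and 285 CPM to 902, 805 and 814 CPM, 1.45 ± 0.060 (edgeR adjusted p = 6.51e-14). Neither gene overlapped between the groups.

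KRT19 rose by 0.76 ± 0.054 on the log2 scale in mixed cultures, from 680.3 ± 28.6 to 1177 ± 47.9 CPM (edgeR adjusted p = 1.74e-10). KRT20 rose by 2.54 ± 0.315 (edgeR adjusted p = 8.37e-07), from 0.644, 0.548 and 0.445 CPM to 2.64, 4.01 and 2.98 CPM. KRT23 rose by 1.31 ± 0.160, from 3.88 ± 0.664 to 9.88 ± 0.738 CPM (edgeR adjusted p = 6.26e-07). The rise of KRT80 was 2.47 ± 0.088 (edgeR adjusted p = 5.11e-15), from 11.5, 12.3 and 9.84 CPM to 64.1, 61.7 and 64.0 CPM. These irradiated KRT80 libraries were the highest of all 18.

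KRT81 rose most in mixed cultures, from 4.79, 3.40 and 3.72 CPM to 32.5, 22.4 and 26.5 CPM, 2.75 ± 0.147 on the log2 scale (edgeR adjusted p = 2.24e-12). KRT7 rose from 4.83, 4.61 and 3.47 CPM to 21.7, 18.2 and 19.2 CPM, 2.17 ± 0.137 (edgeR adjusted p = 3.01e-11). The estimated MCF10A part of the RNA moved with both, from 0.42 ± 0.0685% to 1.22 ± 0.0490%, and what part it had in these rises was not tested.

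Whether the mixed cultures responded differently from HCT116 alone was tested over 12 libraries. KRT8 alone among the 8 was called, with the smaller rise in mixed cultures (-0.38 ± 0.070, edgeR adjusted p = 0.00435), where 0.149% of 18072 genes were called in that direction and 0.681% in the other. KRT18 was at -0.28 ± 0.084 (edgeR adjusted p = 0.117) and passed with DESeq2 (adjusted p = 0.0355) and with no filter (edgeR adjusted p = 0.0236). KRT20 was at 1.01 ± 0.413 (edgeR adjusted p = 0.298), KRT7 at 0.53 ± 0.268 (0.42), KRT80 at 0.45 ± 0.256 (0.499) and KRT81 at 0.41 ± 0.345 (0.69). With standard errors of this size a difference between cultures could go undetected for the last 4.

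Mixed cultures were also set beside HCT116 of the same treatment. Both comparisons share their libraries with those above and are not independent of them. Without irradiation 5 of the 8 members were called, 2 higher and 3 lower in mixed cultures, where 0.887% of 16455 genes tested were called higher and 1.15% lower. KRT8 (-0.30 ± 0.054, edgeR adjusted p = 0.00393) and KRT18 (-0.36 ± 0.060, edgeR adjusted p = 0.00206) were lower. KRT19 was lower by -0.37 ± 0.090 (edgeR adjusted p = 0.0368), at 648, 693 and 701 CPM against 720, 996 and 943 CPM. KRT7 (1.57 ± 0.260, edgeR adjusted p = 0.00206) and KRT81 (1.49 ± 0.349, edgeR adjusted p = 0.0302) were higher. The calls for KRT19 and KRT81 held only without HCT116 replicate 1 or mixed replicate 3 and were lost without any other of the 6 libraries (KRT19 -0.28 to -0.38, edgeR adjusted p = 0.0806 to 0.24; KRT81 1.17 to 1.59, edgeR adjusted p = 0.0505 to 0.192). The KRT81 value became 2.27 without HCT116 replicate 1.

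After irradiation 6 of the 8 were called, 3 higher and 3 lower in mixed cultures, where 5.08% of 17137 genes tested were called higher and 3.48% lower. KRT8 (-0.69 ± 0.043, edgeR adjusted p = 7.43e-13), KRT18 (-0.65 ± 0.052, edgeR adjusted p = 1.55e-10) and KRT19 (-0.41 ± 0.049, edgeR adjusted p = 7.04e-07) were lower. KRT7 (2.10 ± 0.134, edgeR adjusted p = 1.15e-12) and KRT81 (1.88 ± 0.126, edgeR adjusted p = 3.31e-12) were higher. KRT80 was higher by 0.38 ± 0.073 (edgeR adjusted p = 0.000696), at 64.1, 61.7 and 64.0 CPM against 42.1, 48.5 and 54.2 CPM, and this call was lost when all 18 libraries shared one fit (adjusted p = 0.146). KRT20 and KRT23 were not called in either comparison.

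The levels in mixed cultures were compared with the sum of both monocultures, weighted by the estimated share of each line's RNA. KRT8 reached 0.806 ± 0.0028 of the weighted sum without and 0.632 ± 0.0265 with irradiation. KRT18 was at 0.773 ± 0.0439 and 0.65 ± 0.0414, and KRT19 at 0.771 ± 0.0319 and 0.769 ± 0.0315. These 3 chains lay below the sum in all 6 libraries. With so small an MCF10A share the sum is nearly the HCT116 level. For KRT8 it was 1443 and 4703 CPM, against 1448 and 4758 CPM in HCT116 NIR and IR. KRT80 was at 0.955 ± 0.107 without and 1.32 ± 0.0283 with irradiation, where all 3 libraries exceeded the sum. For these keratins the ratios thus largely repeat the comparison with HCT116 above. How often all libraries lay on one side of the sum over all genes was not computed.

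KRT81 was at 0.341 ± 0.0133 of the weighted sum without and 0.744 ± 0.127 with irradiation, and KRT7 at 0.571 ± 0.0983 and 0.706 ± 0.0576. KRT20 was at 0.487 ± 0.0892 and 0.986 ± 0.219, and KRT23 at 0.895 ± 0.153 and 0.871 ± 0.0652. The sums for KRT7 and KRT81 depend strongly on the MCF10A share of RNA, which was 0.263% to 0.42% without and 0.843% to 1.22% with irradiation under 3 choices of marker genes. Applying the other 2 choices to these sums was added after the data were seen. At the lowest share, KRT81 was at 0.53 ± 0.138 without and 0.986 ± 0.135 with irradiation, where 1 irradiated library reached 1.13. KRT7 was then at 0.826 ± 0.0687 and 0.953 ± 0.0403, with its highest library at 0.999. The mean ratios of KRT8, KRT18, KRT19 and KRT80 moved by less than their SD.

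**Figure D4:**
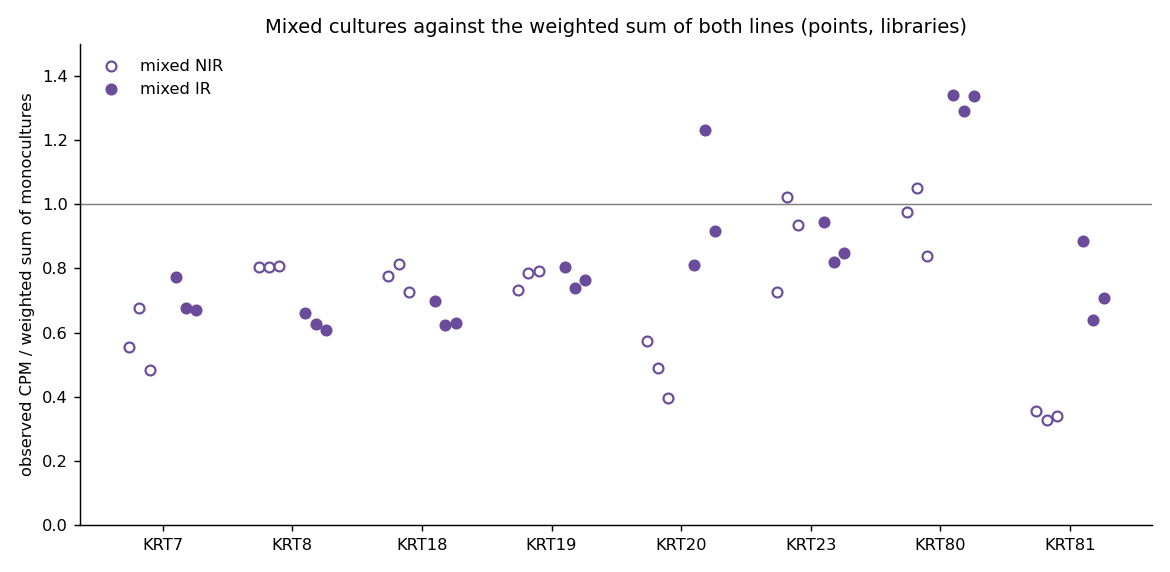
Observed CPM in each mixed library divided by the weighted sum of both monocultures of the same treatment (open NIR, filled IR; the line at 1 marks equality). KRT8, KRT18 and KRT19 lie below 1 in all 6 libraries, KRT7 and KRT81 do so at the MCF10A shares plotted (0.42% NIR and 1.22% IR on average), and KRT80 lies between 1.29 and 1.34 in the 3 irradiated ones.

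The order of the groups differed by member. KRT8, KRT18 and KRT19 ran from HCT116 IR to mixed IR, HCT116 NIR, mixed NIR, MCF10A IR and MCF10A NIR, and only the last 2 groups of KRT18 overlapped. KRT7 ran from MCF10A IR and NIR to mixed IR, HCT116 IR, mixed NIR and HCT116 NIR, with overlap between HCT116 IR and mixed NIR. KRT81 ran in a like order, with overlap between its MCF10A groups only. KRT80 was highest in mixed IR, then in HCT116 IR, and its other 4 groups overlapped from neighbour to neighbour.

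As a description over the 18 libraries, which fall into 6 groups and are not independent points, log2(CPM + 1) of KRT7 and KRT81 correlated at 0.997 and that of KRT8 and KRT18 at 0.958. KRT80 correlated most with KRT20, at 0.775. Among 10913 genes of at least 10 CPM in some group, the pattern of KRT8 was most like PRSS22 (0.996), SEMA7A (0.996) and UBASH3B (0.995). That of KRT7 was most like KRT6A (0.998), THBS1 (0.998) and KYNU (0.997), and that of KRT81 like THBS1 (0.999), KRT7 (0.997) and KYNU (0.995). For KRT18 the nearest were ZNF600 (0.993), GRIN2C (0.991) and VIPAS39 (0.985), and for KRT19 TRIM72, RAB25 and HOXB8, each at 0.999. KRT23 lay nearest to HSPA12A, ZNF469 and GALNT5, each at 0.994, and KRT20 to DCAF7 (0.978), ALDH1A3-AS1 (0.976) and GRIN2C (0.973). KRT80 had the least common pattern, with MCPH1 (0.955), URB1 (0.954) and IFFO2 (0.952) as the 3 genes above 0.95, whereas 1210 genes passed that value for KRT19.

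Other epithelial keratins mostly moved up with irradiation too. Of 21 in that list, 10 were tested in MCF10A, and 6 rose and none fell. In HCT116 7 of 10 rose and none fell, and in mixed cultures 8 of 10 rose and none fell. Over all genes tested, 26.2% were called higher and 29.2% lower in MCF10A, 25.3% and 27.2% in HCT116 and 24.0% and 25.4% in mixed cultures. Most of the rising ones were low: in irradiated HCT116 all but KRT15 were at 2.7 CPM or less. In irradiated mixed cultures all but KRT6A, KRT15 and KRT17 were at 2.8 CPM or less. Among those of at least 10 CPM with no overlap between libraries, the largest rises in MCF10A were those of KRT6B, a keratin of activated keratinocytes, from 7.10 to 32.1 CPM (2.15 ± 0.110, edgeR adjusted p = 1.20e-15) and of KRT15, a basal keratin, from 8.75 to 21.2 CPM (1.25 ± 0.132, edgeR adjusted p = 3.96e-09). In HCT116 KRT15 rose from 30.3 to 52.3 CPM (0.80 ± 0.109, edgeR adjusted p = 1.59e-06). In mixed cultures KRT6A rose from 1.55 to 11.3 CPM (2.84 ± 0.186, edgeR adjusted p = 5.67e-11) and KRT17 from 2.71 to 13.1 CPM (2.25 ± 0.173, edgeR adjusted p = 6.70e-10). KRT6A and KRT17 were at 1629 and 481 CPM in MCF10A NIR and at 0.213 and 0.127 CPM in HCT116 NIR. The estimated MCF10A share of the mixed RNA moved with them from 0.42% to 1.22%. Its part in their rises was not tested. The medians were 0.67, 1.60 and 1.92 on the log2 scale, against 0.00, 0.01 and 0.01 over all genes tested.

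Proteins that bind keratin filaments moved both ways. Of 17, 16 were tested in each culture, and the shares of all genes called higher and lower were 26.2% and 29.2% in MCF10A, 25.3% and 27.2% in HCT116 and 24.0% and 25.4% in mixed cultures. The partners' median log2 fold changes were 0.25, 0.06 and 0.08 in the same order. In HCT116 7 rose and 4 fell, led by SFN, a 14-3-3 protein that binds KRT18, from 166 to 629 CPM (1.93 ± 0.072, edgeR adjusted p = 7.77e-16), and FAM83H, which recruits casein kinase to keratins, from 82.5 to 171 CPM (1.06 ± 0.074, edgeR adjusted p = 3.23e-11). In mixed cultures 7 rose and 3 fell, again with SFN (1.69 ± 0.073, edgeR adjusted p = 1.05e-13) and FAM83H (0.77 ± 0.062, edgeR adjusted p = 1.46e-09) at the top. In MCF10A 10 rose and 4 fell. The largest there were EPPK1, the cytolinker epiplakin, from 12.0 to 30.9 CPM (1.35 ± 0.099, edgeR adjusted p = 3.09e-12) and SQSTM1 from 208 to 417 CPM (0.98 ± 0.050, edgeR adjusted p = 9.37e-16). TCHP, trichoplein, fell by 0.56 ± 0.073 in MCF10A (edgeR adjusted p = 1.95e-07) and by 0.38 ± 0.096 in mixed cultures (edgeR adjusted p = 0.00262). Falls of desmosomal and heat shock partners were small: EVPL in MCF10A (-0.27 ± 0.077, edgeR adjusted p = 0.00371), the plakophilins PKP2 (-0.29 ± 0.072, edgeR adjusted p = 0.00177) and PKP3 (-0.21 ± 0.069, edgeR adjusted p = 0.0134) in HCT116, and HSPB1 in mixed cultures (-0.33 ± 0.066, edgeR adjusted p = 0.000233).

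Epithelial transcription factors were called in both directions, with more rises than falls in MCF10A. Of 22, in MCF10A 10 of the 19 tested rose and 3 fell, in HCT116 6 of 21 rose and 6 fell, and in mixed cultures 8 of 22 rose and 7 fell. Of all genes tested, 26.2% were called higher and 29.2% lower in MCF10A, 25.3% and 27.2% in HCT116 and 24.0% and 25.4% in mixed cultures. The HCT116 counts were near those shares. The factors' median log2 fold changes were 0.17, 0.05 and 0.09 in the same order. EHF, an ETS factor of epithelia, rose in all 3, by 0.90 ± 0.058 in MCF10A (edgeR adjusted p = 1.45e-13), 0.83 ± 0.061 in HCT116 (edgeR adjusted p = 8.80e-11) and 0.75 ± 0.054 in mixed cultures (edgeR adjusted p = 2.38e-10). SP1 fell in all 3, by 0.41 ± 0.046, 0.65 ± 0.056 and 0.67 ± 0.060 (edgeR adjusted p = 1.09e-08, 1.12e-09 and 7.28e-09). OVOL1 also rose in HCT116 (0.55 ± 0.141, edgeR adjusted p = 0.00221) and JUN in mixed cultures (0.85 ± 0.111, edgeR adjusted p = 1.84e-06). Others fell: TFAP2C in MCF10A (-0.36 ± 0.074, edgeR adjusted p = 0.000169), KLF4 in HCT116 (-0.93 ± 0.096, edgeR adjusted p = 2.40e-08) and the splicing regulator ESRP1 in mixed cultures (-0.53 ± 0.053, edgeR adjusted p = 4.68e-08).

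Between the lines without irradiation, members of each list were called in both directions, where 38.7% of all genes tested were called higher in HCT116 and 36.1% lower. Other epithelial keratins were lower in HCT116 in 8 of 11 tested and higher in 2, with KRT5 at 0.117 against 2883 CPM, KRT6A at 0.213 against 1629 CPM and KRT15 at 30.3 against 8.75 CPM. Of 16 filament partners 5 were higher in HCT116, such as the plakins PPL (173 against 16.6 CPM) and EPPK1 (74.4 against 12.0 CPM), and 11 were lower, such as FAM83H (82.5 against 209 CPM) and SFN (166 against 394 CPM). Of 22 transcription factors 9 were higher and 11 lower. GRHL2, an epithelial factor, stood at 41.0 CPM in HCT116 while none of the MCF10A libraries counted it. TP63, the basal factor, and SNAI2 were at 109 and 108 CPM in MCF10A and at 0 and 0.728 CPM in HCT116.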

How the data were processed

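The authors deposited one table of raw counts per gene symbol for each of the 18 libraries. Per the submitters' processing notes, reads were handled with fastp, STAR and featureCounts on GRCh38, and the annotation, versions and settings are not given in the sources used here. CPM is the count divided by the library's total count. Counts were tested with edgeR 4.0.16 in R 4.3.3 (quasi-likelihood F test, TMM, filterByExpr, 2-sided, Benjamini-Hochberg over all genes tested, called under 0.05), fitting only the groups compared. The pipeline was tested on simulated data. The members and gene lists were chosen with earlier results of these data known. All members are named, and from each list up to 2 called genes per direction with at least 10 CPM and no overlap, given here mainly for irradiation. Some items are not reported here. Replicates carry no stated day or batch. Deviations of same-numbered libraries correlated at -0.065 to 0.0998 over 15 pairs of groups, so the numbers were not taken to pair samples. No 2 libraries were duplicates (chi-square per gene of replicates 2.44 to 7.58). MCF10A shares are medians over genes of at least 20 CPM in one line and under 1 CPM in the other. DESeq2 1.42.0, other scalings, no filter, a replicate block, one fit of all libraries, halved counts, added pseudogene counts and leaving out each library were tried as alternatives.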

Additional observations from a re-analysis of the deposited data

Results flagged for a closer look

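Of the members, 7 differed between HCT116 and MCF10A in their response to irradiation, by the test of the difference itself (edgeR's quasi-likelihood interaction, Benjamini-Hochberg adjusted). Of all 18179 genes tested, 15.4% were called with a positive difference, HCT116 minus MCF10A, and 21.9% with a negative one. The log2 differences, HCT116 minus MCF10A, were 2.31 for KRT81, 2.04 for KRT80, 1.60 for KRT18, 1.19 for KRT7 and 0.94 for KRT8. KRT23 was at 6.23 and KRT19 at -5.33, where the MCF10A groups held 10 and 22 counts at most. Between mixed cultures and HCT116 alone, KRT8 differed by -0.38, the smaller rise being that of the mixed cultures. Of all 18072 genes tested there, 0.149% were called in that direction and 0.681% in the other.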

How the results depend on the processing

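Of 1200 recomputed values for single members, 1163 kept their direction and their side of the threshold, 14 lost the call, 7 gained it and 16 turned sign, none of the last in a called result. In MCF10A, KRT80 turned to 0.0084 and KRT81 to 0.031 with upper-quartile factors, and leaving out a library moved KRT18 between -0.0048 and 0.15. In mixed NIR against HCT116 NIR, KRT80 was 0.056 with the replicate block, and leaving out a library gave -0.26 to 0.49 for KRT80 and -0.27 to 0.057 for KRT23. Likewise KRT20 ran from -0.23 to 0.092 in mixed IR against HCT116 IR and from -1.32 to 4.27 in the response difference HCT116 minus MCF10A. In the response difference mixed minus HCT116 the ranges were -0.15 to 0.073 for KRT19, -0.30 to 0.013 for KRT23, -0.13 to 0.63 for KRT80 and -0.42 to 0.72 for KRT81. The KRT8 to KRT18 ratio, HCT116 IR against NIR, on the log2 scale ran from -0.038 to 0.0015. Members called in MCF10A IR against NIR went from 2 to 4 with all 18 libraries in 1 fit. In mixed NIR against HCT116 NIR they ranged from 3 to 5 without a library, falling to 3 without HCT116 NIR replicate 2 or 3 or mixed NIR replicate 1 or 2. For the response difference mixed minus HCT116 they were 2 with no filter, 2 with DESeq2 and 1 to 2 without a library (2 without mixed NIR replicate 3 or mixed IR replicate 1). All genes called in mixed NIR against HCT116 NIR were 335, and 671 with no filter, 576 with DESeq2, 716 with the replicate block, 768 in 1 fit and 145 to 313 without a library. In mixed IR against HCT116 IR they were 1467, 2220 with the replicate block and 866 to 1312 without a library, and in the response difference mixed minus HCT116 150, 336 with no filter, 327 with DESeq2 and 64 to 197 without a library. The replicate block changed no count of members called. With upper-quartile scaling of the non-irradiated lines, the median over all genes shifted from 0.05 to 0.25, and the part of called genes that were higher went from 51.8% to 62.4%. After irradiation that share went from 50.9% to 62.4% with library size alone. In MCF10A it went from 47.4% to 57.5% with upper-quartile factors. In the response difference HCT116 minus MCF10A it went from 41.3% to 52.6% with TMM without mitochondrial and top genes, and mixed minus HCT116 from 82.0% to 71.6%. The causes were not tested.

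With 3 libraries a group, no exact test can go under 0.1. KRT7, KRT20, KRT23 and KRT81 in HCT116 rest on 23 to 475 counts a library, so their folds are less precise than those of KRT8, KRT18 and KRT19. Counting settings, multi-mapped reads and the strand setting are not known here.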

Other observations

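Neighbours and relatives of the members were read as well. KRT7-AS, which overlaps KRT7 on the other strand, was at 36.7 ± 3.87 CPM in MCF10A NIR and 44.9 ± 3.44 CPM in MCF10A IR, a log2 fold change of 0.27 ± 0.078 (edgeR adjusted p = 0.00433). In HCT116 it rose from 0.0796 ± 0.0924 to 0.606 ± 0.192 CPM, by 2.96 ± 0.789 (edgeR adjusted p = 0.00304). KRT86, the closest relative of KRT81, rose in MCF10A from 2.90 ± 0.691 to 4.26 ± 1.13 CPM (0.55 ± 0.231, edgeR adjusted p = 0.0452). Its libraries overlapped there, reaching 3.69 CPM without irradiation and starting at 3.05 CPM with it. KRT81 was not called in MCF10A. KRT86 also rose in HCT116, from 0.340 ± 0.184 to 1.54 ± 0.322 CPM (2.20 ± 0.485, edgeR adjusted p = 0.00053). Reads in the run that KRT81 and KRT86 share could belong to either gene.

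The hair and root sheath keratins other than KRT81 were counted at low levels. Of 25 in that list, 4 were tested in MCF10A, and 3 rose and none fell. They were KRT86, KRT75 (from 0.173 to 1.39 CPM, 2.97 ± 0.547, edgeR adjusted p = 3.71e-05) and KRT34 (from 0.144 to 0.945 CPM, 2.67 ± 0.595, edgeR adjusted p = 0.000374). In HCT116 5 of 7 rose and none fell, KRT34 among them (3.19 ± 0.751, edgeR adjusted p = 0.00102). In mixed cultures only 1 of 4 rose and none fell. The shares of all genes called higher and lower were 26.2% and 29.2% in MCF10A and 25.3% and 27.2% in HCT116. They were 24.0% and 25.4% in mixed cultures. KRT75 and KRT34 fall outside the naming rule and were chosen after their values were seen.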
